A study of Mus musculus with 3 samples.

Results

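The genes described here encode the nuclear subunits of respiratory complex I and the Ndufaf assembly factors that help to build it. They were taken as every symbol that begins with Nduf, which gave 45 of the 23238 symbols listed, 38 of them subunit symbols and 7 of them assembly factors. The subunit symbols include Ndufa4, which belongs to complex IV, and its paralog Ndufa4l2. All RNA was from c2c12, a mouse myoblast line that is immortalized and fuses into myotubes when serum is reduced. Cells spent 2 days in myogenic induction medium with horse serum, on tissue culture plates (TCP), on a hydrogel of methacrylated gelatin (GelMA), or on GelMA-PSS, a 15% GelMA hydrogel with 1% of PSS, a sulfonated polymer (poly sodium 4-styrenesulfonate). The question was how the hydrogel with PSS alters these cells relative to the hydrogel without it and the plate, which serve as controls. Each substrate had 1 library, so the differences have no replicate check and no p-values are given.

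Complex I is the entry point of electrons from NADH into the respiratory chain, and it pumps protons across the inner mitochondrial membrane. Its core subunits carry the flavin, the iron-sulfur clusters and the ubiquinone site, its accessory subunits surround that core, and assembly factors join modules of the complex without staying in it. Some core subunits are encoded by mitochondrial DNA, and these mt-Nd genes were not analysed here. Differentiating myoblasts build up their mitochondria, which makes this complex a readout of interest in muscle cells.

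The deepest library was GelMA-PSS with 192171443 counts, followed by TCP with 119799095 and GelMA with 87071144. The Nduf genes took 0.385% of the counts on TCP (Wilson 95% interval 0.384 to 0.386), 0.346% on GelMA (0.345 to 0.348) and 0.475% on GelMA-PSS (0.474 to 0.476). All intervals given here cover counting error only. It is not known whether the reads of a pair were counted separately, in which case the intervals would be too narrow. Levels are CPM, counts scaled to library size with TMM factors. Ratios are differences of log2(CPM + 1), a scale that understates differences of low genes. A gene was tested if its CPM reached 1 in any library, which 13169 genes did, among them 44 of the 45 Nduf members. The member outside this limit was Ndufa4l2.

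The muscle identity of the cells was checked by markers. Of the muscle markers, 11 of 11 passed the CPM limit, with summed CPM of 31891 on TCP, 23323 on GelMA and 20906 on GelMA-PSS. Myh3, the embryonic myosin heavy chain, was the most abundant of them in both controls, with 10182 CPM on TCP and 6355 on GelMA, against 3037 on GelMA-PSS, where the most abundant was Acta1 with 5060 CPM. Myf5, a transcription factor of undifferentiated myoblasts, was highest on GelMA-PSS, with CPM of 13.9, 19.5 and 36.5 on TCP, GelMA and GelMA-PSS. Of the markers of other cells, 1 of 4 leukocyte genes (Cd68), 1 of 2 epithelial genes (Cdh1) and 1 of 2 neuronal genes (Snap25) passed the limit, and 0 of 3 endothelial and 0 of 3 adipocyte genes did. Ptprc, which defines leukocytes, had 0, 0 and 4 counts, and Epcam, which defines epithelium, had 4, 3 and 4. Relative to both controls, 2 muscle markers were higher on GelMA-PSS, 5 were lower and 4 lay between, where 45.3% of all genes tested were higher and 39.3% lower. After a loess correction for length and GC content, described below, 2 markers were higher, 8 lower and 1 between, where 40.7% of all genes were higher and 40.6% lower. The part of these differences in the values of the Nduf genes was not tested. Summed CPM on TCP, GelMA and GelMA-PSS was 1.75, 1.86 and 1.62 for the leukocyte genes, 10.2, 8.30 and 5.33 for the epithelial genes and 3.68, 3.83 and 1.99 for the neuronal genes. In these bulk samples, fewer cells of a type and less RNA per cell cannot be told apart.

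Per transcript length, the subunits were far more abundant than the assembly factors in each library. The median subunit stood at 188 TPM, a level corrected for transcript length, on TCP, 175 on GelMA and 197 on GelMA-PSS. The median assembly factor stood at 19.8 TPM on TCP, 16.8 on GelMA and 18.3 on GelMA-PSS. The lowest subunit that passed the limit, at 38.2 TPM on TCP, was still above the highest assembly factor, at 33.0. On GelMA-PSS these levels were 38.9 and 38.4 TPM, but on GelMA the order was the opposite, with 29.1 TPM for the lowest subunit and 31.3 for the highest assembly factor. In each of these libraries the lowest subunit was Ndufab1 and the highest factor was Ndufaf2. This order on GelMA depends on the transcript taken, since with the shortest coding transcript of each gene the lowest subunit on GelMA, again Ndufab1, stood at 54.3 TPM and the highest factor at 29.0. Summed over members, subunit TPM came to 7998 on TCP, 7268 on GelMA and 8478 on GelMA-PSS, and assembly factor TPM to 135, 121 and 133. On this scale, which uses no TMM factors, GelMA was lowest for both classes, and GelMA-PSS was above TCP for subunits and slightly below it for assembly factors.

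**Figure D1:**
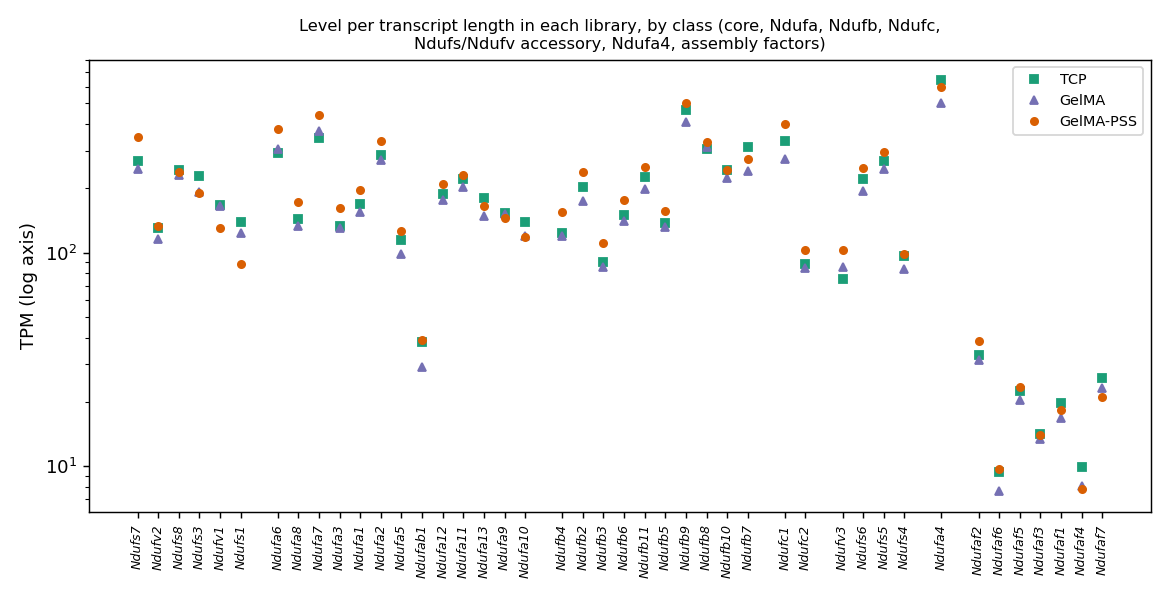
Level of 43 of the 44 Nduf genes that passed the CPM limit, in TPM on a log axis, in the TCP, GelMA and GelMA-PSS libraries (1 point per library). Assembly factors, at the right, lie between 7.62 and 38.4 TPM, and subunits between 29.1 and 642 TPM. The highest value is Ndufa4, which belongs to complex IV, and without it the highest subunit value is 500 TPM, on GelMA-PSS.

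The order of the members by level was close to the same on each substrate. Across the 44 members, Spearman's rho of TPM was 0.99 between TCP and GelMA, 0.97 between GelMA and GelMA-PSS and 0.97 between TCP and GelMA-PSS, and across 13054 genes it was 0.99, 0.97 and 0.97. These are correlations across genes, which are not independent replicates. The members lie on 16 chromosomes, with at most 6 of them on the same chromosome (chr17).

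With TMM factors, 43 of the 44 tested Nduf genes were higher on GelMA-PSS than on both controls, but in TPM without TMM factors 29 were. Of the 37 subunits that passed the limit, 36 were higher on GelMA-PSS than on both GelMA and TCP, as were 7 of 7 assembly factors, against 45.3% of the 13169 genes tested. With library totals as the scaling, 34 subunits and 6 assembly factors were higher (all genes 35.4%), and in TPM without TMM factors 26 and 3 (all genes 15.8%), where the median of all genes itself lay at -0.32 against the mean of the controls (0.03 with TMM factors). Relative to the median of all genes, subunits stood at 0.61 and assembly factors at 0.39 with TMM factors, and at 0.54 and 0.35 in TPM. In single comparisons, the median log2 ratio of subunits was 0.71 to GelMA and 0.54 to TCP. That of assembly factors was 0.54 to GelMA and 0.37 to TCP. Over all genes tested it was 0.03 to GelMA and 0.04 to TCP. Both comparisons share the GelMA-PSS library, so they are not independent.

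By more than 2-fold against both controls, 0 members were higher, where 1.37% of all genes were, and 0 were lower, where 1.16% were. Against a single control, 0 members were more than 2-fold higher than on GelMA (all genes 1.77%) and 0 than on TCP (3.72%). At 1.5-fold, 15 of the 37 subunits were higher than in both controls and 0 of the 7 assembly factors, against 8.08% of all genes, and 0 members were lower, against 7.18%. The 15 were Ndufa1, Ndufa2, Ndufa3, Ndufa6, Ndufa7, Ndufa8, Ndufb2, Ndufb3, Ndufb4, Ndufb5, Ndufb6, Ndufc1, Ndufc2, Ndufs7 and Ndufv3. The number above 1.5-fold depends on the scale, as 3 members passed it with library totals as the scaling (all genes 4.84%), 0 in TPM without TMM factors (all genes 1.41%) and 0 after correction for transcript length and GC content (all genes 2.63%). With a pseudocount of 0.1 in place of 1, 15 subunits and 1 assembly factor, Ndufaf2, passed it (all genes 9.59%). In TPM and after the correction, 0 members were lower by 1.5-fold, against 21.1% and 4.04% of all genes. With TMM factors and each control taken singly, the GelMA control was passed by 1.5-fold by 28 subunits and 3 assembly factors (all genes 11%), and the TCP control by 15 and 0 (all genes 13.2%).

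Subunits stood above assembly factors by 0.22 in the median log2 ratio to the mean of the controls, with 0.64 for subunits and 0.42 for assembly factors. Their transcripts also differed in length, with a median of 763 bases for subunits and 1451 for assembly factors, against 2801.5 for all genes tested with a length. When length and GC content were corrected for by loess fits over all genes, the medians were 0.15 and 0.08 and the difference was 0.07. After this correction, 27 subunits were higher than in both controls, 5 lower and 5 between, against 40.7% of all genes higher and 40.6% lower. Of the assembly factors, 4 were then higher, 1 was lower and 2 lay between.

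**Figure D2:**
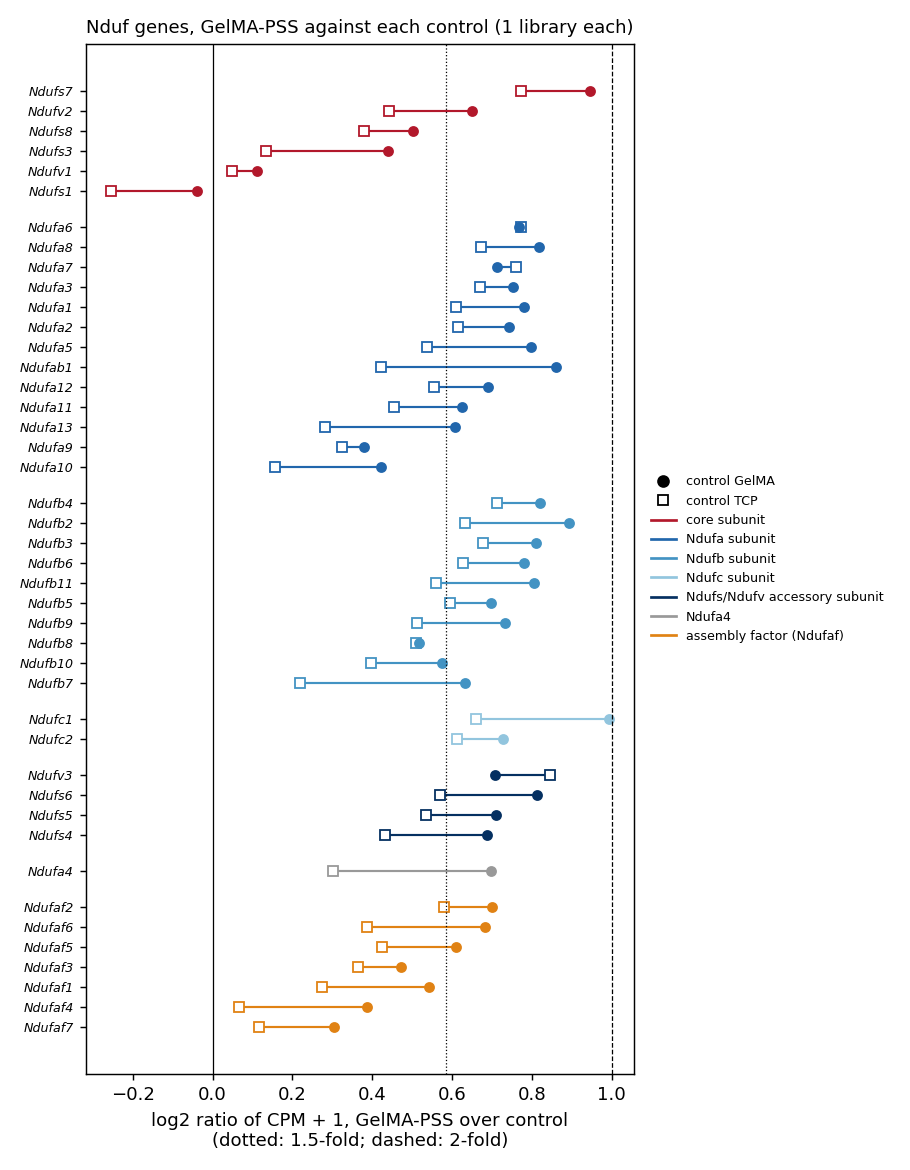
Log2 ratio of CPM + 1 on GelMA-PSS over GelMA (filled circles) and over TCP (open squares) for 43 of the 44 Nduf genes that passed the CPM limit, grouped by class, with 1 library per substrate. Ndufs1 is left of 0 against both controls, the other genes drawn are right of it (of all 44, 40 are above both controls with library totals as the scaling, against 35.4% of all genes, and 29 in TPM without TMM factors, against 15.8%), and Ndufc1 over GelMA, at 0.99, is the point nearest to 2-fold.

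The core subunits encoded in the nucleus had the widest range of ratios among the classes, from -0.15 to 0.86 against the mean of the controls. Ndufs7, which holds the last iron-sulfur cluster before ubiquinone, had a CPM of 107 on TCP (95% Poisson interval 105 to 108), 94.5 on GelMA (92.5 to 96.5) and 183 on GelMA-PSS (181 to 185). It was 1.94-fold higher on GelMA-PSS than on GelMA (1.89 to 1.98) and 1.72-fold higher than on TCP (1.68 to 1.75). Its log2 ratio to the mean of the controls, 0.86, was the largest among the 44 members that passed the limit. Ndufs1, the large iron-sulfur subunit of the NADH-oxidizing module, had a CPM of 195 on TCP (192 to 197), 168 on GelMA (165 to 170) and 163 on GelMA-PSS (161 to 165). It was the only one of the 44 that was lower on GelMA-PSS than on both controls (all genes 39.3%). With library totals as the scaling 2 were lower (all genes 49.4%), and in TPM without TMM factors 8 were (all genes 71.6%). The ratio of CPM of Ndufs1 was 0.973 to GelMA (0.954 to 0.992) and 0.838 to TCP (0.823 to 0.852).

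Other core subunits lay between these. Ndufv1, which binds NADH and the flavin, had a CPM of 146 on TCP, 140 on GelMA and 151 on GelMA-PSS, with log2 ratios of 0.11 to GelMA and 0.05 to TCP. Ndufs3, a subunit of the ubiquinone-reducing module, had 126, 102 and 138 CPM in the same order, with ratios of 0.44 and 0.13. Both genes differed less between GelMA-PSS and TCP than between GelMA-PSS and GelMA. Ndufs8, an iron-sulfur subunit that passes electrons on toward Ndufs7, had 99.4, 91.2 and 130 CPM, with ratios of 0.50 and 0.38. Ndufv2, the iron-sulfur partner of Ndufv1, had 116, 100.2 and 158 CPM, with ratios of 0.65 and 0.44.

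The core median was 0.29 against the mean of the controls, but -0.14 in TPM without TMM factors. The 29 accessory subunits had medians of 0.67 and 0.26 on these scales. Core transcripts had a median length of 1623 bases and those of the accessory subunits 704. After correcting for length and GC content, the core median was -0.09 and the accessory median 0.17. Then Ndufs1, Ndufs3 and Ndufv1 were lower than in both controls, Ndufs7 and Ndufv2 were higher and Ndufs8 lay between. Of the accessory subunits, 25 of 29 were higher after the correction and 0 were lower, against 40.7% and 40.6% of all genes. The core and accessory classes thus lay on different sides of 0 once length was taken into account, but with the shortest coding transcript of each gene in the correction their medians were 0.02 and 0.30.

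Exons of Ndufs1 overlap those of 2 genes on the opposite strand. Ndufs1 (chr1:63143596-63176833, minus strand, GRCm38) shares 489 bases with the long noncoding RNA Ino80dos, which had 25.8, 20.7 and 21.6 CPM on TCP, GelMA and GelMA-PSS and a ratio to the mean of the controls of -0.10. It also shares 9 bases with Eef1b2, a translation elongation factor gene with 735, 678 and 1219 CPM and a ratio of 0.79, opposite in sign to the -0.15 of Ndufs1. The methods call the reads strand-specific, but whether the counting used the strand is not given in the sources used here. Without strand, reads of such pairs cannot be told apart, and their part in these values was not tested.

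Ndufs7 (chr10:80249121-80256794, plus strand) lies among genes that were also higher on GelMA-PSS. The 4 tested genes on either side, from Cirbp to Apc2, were looked at after the value of Ndufs7 was seen. In each of these 8 neighbours the ratio was above 0 against both controls (all genes 45.3%), also after the correction (all genes 40.7%). The adjacent genes were Mum1, with 78.5, 62.4 and 168 CPM, and Gamt, the enzyme of creatine synthesis, with 111, 85.3 and 158 CPM. Apc2, at the far end, had 34.5, 16.3 and 105 CPM. The ratio of Ndufs7 to the mean of the controls, 0.86, was smaller than that of 6 of its 8 neighbours, as only Cirbp (0.79) and Gamt (0.69) were below it. What the neighbourhood has to do with the value of Ndufs7 was not tested.

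The 13 Ndufa accessory subunits had a median log2 ratio of 0.67 to the mean of the controls, with a range from 0.29 to 0.77. All 13 were above both controls (all genes 45.3%). In TPM without TMM factors 10 were (all genes 15.8%), not Ndufa9, Ndufa10 and Ndufa13. Ndufa6, which anchors an acyl carrier protein to the matrix arm, had a CPM of 90.8 on TCP, 91.1 on GelMA and 156 on GelMA-PSS, with ratios of 0.77 against GelMA and 0.77 against TCP. Ndufa8, a disulfide-rich subunit on the intermembrane side, had 64.8, 58.5 and 104 CPM, with ratios of 0.82 and 0.67. By the mean of the controls these were the genes of the class with the highest ratios, and the lowest were Ndufa10 and Ndufa9. Ndufa10, a membrane-arm subunit related to nucleoside kinases, had 148, 123 and 165 CPM, with ratios of 0.42 and 0.16. Ndufa9, which binds a nucleotide near the ubiquinone site, had 116, 112 and 146 CPM, with ratios of 0.38 and 0.33. Ndufa10 and Ndufa9 have transcripts of 2020 and 1445 bases, against 590 and 861 for Ndufa6 and Ndufa8.

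Ndufab1, the mitochondrial acyl carrier protein, also serves fatty acid synthesis outside complex I. It had a CPM of 69.9 on TCP, 51.3 on GelMA and 94.0 on GelMA-PSS, with ratios of 0.86 against GelMA and 0.42 against TCP. Its log2 ratio of GelMA to TCP, -0.44, was the lowest among the members. The transcript used for Ndufab1 has 3479 bases, and the corrected ratio to the mean of the controls was 0.62, the largest of the 44. With the shortest coding transcript, of 1416 bases, it was 0.38, below the 0.61 of Ndufs7. With the longest of tied transcripts it was 0.61, below the 0.83 of Ndufb2. The corrected value of Ndufab1 and its rank thus depend on which transcripts are taken.

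The 10 Ndufb subunits, which lie in the membrane arm, had a median of 0.66 and a range from 0.43 to 0.77. All 10 were above both controls (all genes 45.3%). In TPM without TMM factors 8 were (all genes 15.8%), not Ndufb7 and Ndufb10. Ndufb4 had a CPM of 63.3 on TCP, 58.7 on GelMA and 104 on GelMA-PSS, with ratios of 0.82 against GelMA and 0.71 against TCP. Ndufb2 had 48.6, 40.4 and 75.8 CPM, with ratios of 0.89 and 0.63. By the mean of the controls these were the highest of the class. Ndufb7, on the intermembrane side, had 102, 76.4 and 119 CPM, with ratios of 0.63 and 0.22. Ndufb10, on the same side, had 94.1, 83.1 and 124 CPM, with ratios of 0.57 and 0.40. Both were the lowest of the class by the mean of the controls, where they stood at -0.01 and 0.02 after the correction. Exons of 3 Ndufb genes overlap a gene on the opposite strand, and the ratios to the mean of the controls were alike in 1 of these pairs only. Ndufb5 (0.65) shares 616 bases with Mrpl47 (0.63), Ndufb2 (0.76) shares 146 with Braf (-0.72) and Ndufb11 (0.68) shares 117 with Rbm10 (-0.05).

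The Ndufc class has 2 genes, both in the membrane arm. Ndufc1, whose transcript of 315 bases is the shortest among the members, had a CPM of 55.2 on TCP (53.9 to 56.6), 43.7 on GelMA (42.3 to 45.0) and 87.9 on GelMA-PSS (86.5 to 89.3). Its CPM was 2.01-fold higher on GelMA-PSS than on GelMA (1.94 to 2.08), so its interval holds 2-fold, and 1.59-fold higher than on TCP (1.55 to 1.64). Ndufc2 had 31.7, 29.2 and 49.0 CPM, with log2 ratios of 0.73 and 0.61. On the log2(CPM + 1) scale used for the threshold, Ndufc1 had 0.99 against GelMA and stayed just under 2-fold.

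The accessory subunits with Ndufs and Ndufv names had a median of 0.66 and a range from 0.56 to 0.78 over 4 genes. Ndufv3, which sits beside the flavin-binding subunits, had a CPM of 62.4 on TCP, 68.7 on GelMA and 113 on GelMA-PSS, with ratios of 0.71 against GelMA and 0.85 against TCP. It is the member with the highest ratio of GelMA to TCP, 0.14. Its corrected ratio to the mean of the controls was 0.56 with a transcript of 1582 bases and 0.41 with the shortest coding transcript, of 493 bases. Ndufs6, a zinc-binding subunit added late in assembly, had 66.2, 55.8 and 98.7 CPM, with ratios of 0.81 and 0.57. Ndufs4, whose loss causes a Leigh-like disease in mice, had 86.4, 72.2 and 117 CPM, with ratios of 0.69 and 0.43. Ndufs5, on the intermembrane side, had 74.3, 65.7 and 108 CPM, with ratios of 0.71 and 0.54. In each of the 4 genes the GelMA-PSS library was above both controls (all genes 45.3%), also after the correction (all genes 40.7%). The same held for the 4 genes in TPM without TMM factors (all genes 15.8%).

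Ndufa4 carries a complex I name but belongs to complex IV, and Ndufa4l2 is its paralog, known for its response to low oxygen. Ndufa4 had the highest TPM of the members in each library, with 642 on TCP, 505 on GelMA and 599 on GelMA-PSS. Its CPM was 206, 156 and 254, with log2 ratios of 0.70 to GelMA and 0.30 to TCP. After the correction its ratio to the mean of the controls was -0.14, below each of the 29 accessory subunits of complex I, whose lowest value was -0.01 in Ndufb7. With the shortest coding transcript of each gene in the correction, the ratio of Ndufa4 was -0.0025. In TPM without TMM factors Ndufa4 was not above both controls. Ndufa4l2 had 22 counts on TCP, 5 on GelMA and 53 on GelMA-PSS, or CPM of 0.181 (0.113 to 0.273), 0.0550 (0.0179 to 0.128) and 0.293 (0.219 to 0.383). Its CPM was 5.32-fold higher on GelMA-PSS than on GelMA with a wide interval (2.14 to 17.0), and the ratio of 1.62 to TCP had an interval that holds 1 (0.968 to 2.80). Its exons share 32 bases with Shmt2 on the opposite strand, which had 134, 123 and 112 CPM, and the part of reads from Shmt2 in these low counts was not tested.

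The assembly factors were less abundant, and their counting errors are larger. Ndufaf2, a paralog of the subunit Ndufa12 that acts late in assembly, had a CPM of 11.8 on TCP (11.2 to 12.4), 10.8 on GelMA (10.1 to 11.4) and 18.1 on GelMA-PSS (17.5 to 18.7). Its log2 ratios of 0.70 to GelMA and 0.58 to TCP were the highest of the class, the latter just under the 1.5-fold line at 0.585. In CPM without a pseudocount it was 1.68-fold higher than on GelMA (1.57 to 1.81) and 1.54-fold higher than on TCP (1.44 to 1.64), so the latter interval holds 1.5-fold. Ndufaf6, an early factor related to phytoene synthases, had 5.36 (4.96 to 5.79), 4.18 (3.77 to 4.62) and 7.31 CPM (6.93 to 7.72), with ratios of 0.68 and 0.39. Ndufaf5, which hydroxylates an arginine of Ndufs7, had 13.8, 12.1 and 18.9 CPM, with ratios of 0.61 and 0.43.

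Ndufaf3 and Ndufaf4 act together on the ubiquinone-binding module. Ndufaf3 had a CPM of 11.0 on TCP, 10.2 on GelMA and 14.5 on GelMA-PSS, with ratios of 0.47 against GelMA and 0.37 against TCP. Ndufaf4 had 18.9 (18.1 to 19.7), 14.9 (14.1 to 15.7) and 19.8 CPM (19.2 to 20.5), with ratios of 0.39 and 0.07. The difference of Ndufaf4 from TCP was within counting error, at 1.05-fold (0.995 to 1.11). Ndufaf1, a part of the complex that builds the membrane arm, had 15.1, 12.4 and 18.5 CPM, with ratios of 0.54 and 0.27. Ndufaf7, an arginine methyltransferase, had 23.7, 20.7 and 25.7 CPM, with ratios of 0.30 and 0.12, the lowest of the class against GelMA. Ndufaf4 has the longest transcript among the members, 3632 bases, and Ndufaf2 the shortest among the assembly factors, 678 bases.

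A further symbol, 1810043H04Rik, is given by RefSeq as Ndufaf8, and was not chosen by the name rule. It had a CPM of 7.56 on TCP, 8.07 on GelMA and 12.9 on GelMA-PSS, with ratios of 0.62 against GelMA and 0.70 against TCP. The symbol BC002163 is a processed pseudogene in GENCODE, and 260 of its 300 words of 20 bases also occur in Ndufs5 transcripts. It had 17.5, 16.7 and 28.2 CPM and a ratio to the mean of the controls of 0.69, where Ndufs5 had 0.62. The counting could have split reads between Ndufs5 and this copy, so both values are uncertain.

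The ratios followed transcript length among the members as they did among all genes. Spearman's rho between length and the ratio to the mean of the controls was -0.58 over the 44 members, -0.48 over the 37 subunits, -0.93 over the 7 assembly factors and -0.58 over 13054 genes. After the correction it was -0.08 over the 44 members. In transcripts from 750 to under 1500 bases, the median ratio was 0.66 for 12 subunits, 0.47 for 4 assembly factors and 0.42 for 1870 genes. Below 750 bases it was 0.68 for 17 subunits and 0.53 for 672 genes. Library depth differed with the substrate as well, and the part of depth in the ratios was not tested.

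**Figure D3:**
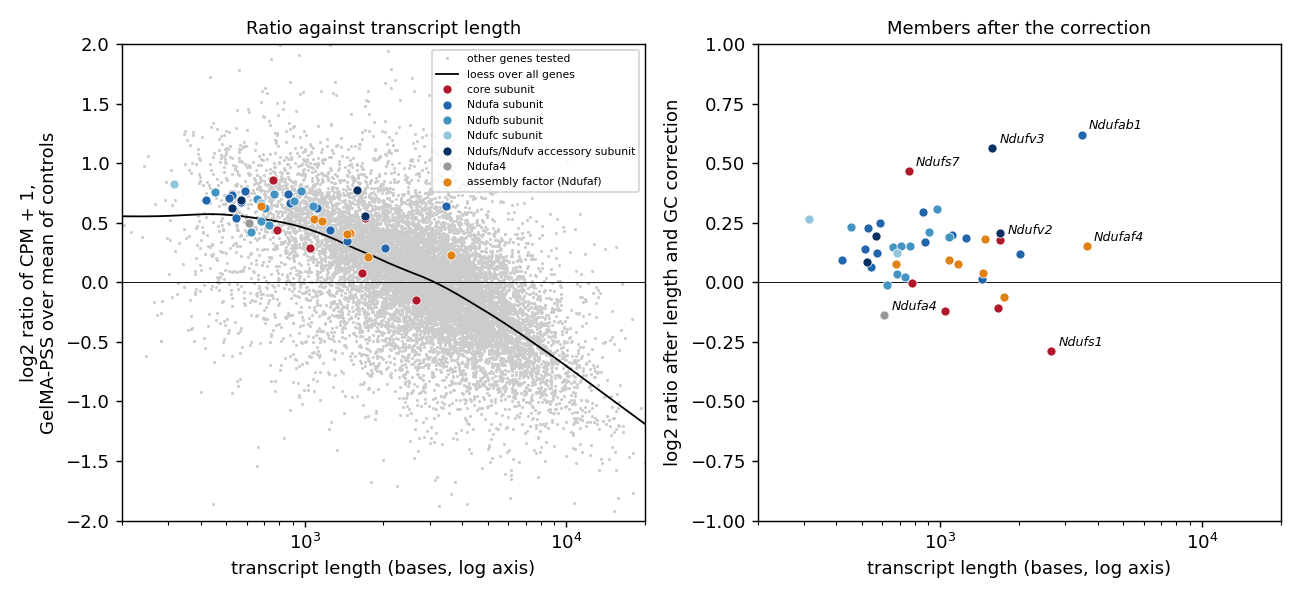
Left, log2 ratio of CPM + 1 on GelMA-PSS over the mean of the controls against transcript length (log axis) for 13054 genes, with the loess line and 43 Nduf members in colour; 150 genes, none of them a member, lie outside the axes. Right, these members corrected for length and GC content, with Ndufab1 at 0.62, Ndufv3 at 0.56 and Ndufs7 at 0.47 highest and Ndufs1 at -0.29 lowest. The order of the highest depends on the transcripts taken.

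The control substrates also differed from each other in the Nduf genes. The median log2 ratio of GelMA to TCP was -0.17 for subunits and -0.19 for assembly factors, against -0.01 for all genes. These are smaller than the shifts of GelMA-PSS from TCP with TMM factors, 0.54 and 0.37, but not on every scale. After the correction the medians of GelMA to TCP were -0.14 for subunits and -0.13 for assembly factors, and those of GelMA-PSS to TCP were 0.11 and 0.00. Of the subunits that passed the limit, 34 of 37 were lower on GelMA than on TCP, as were 7 of 7 assembly factors, against 51.7% of all genes. The number of subunits was between 33 and 35 under the other scalings. The 3 exceptions, Ndufa6, Ndufa7 and Ndufv3, were higher on GelMA, as were 48.3% of all genes, and 0 members passed 1.5-fold in either direction, where 3.5% of all genes did upward and 2.12% downward. With TMM factors, GelMA thus held the lowest value of the 3 libraries for most members, with TCP between it and GelMA-PSS.

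Genes of the other respiratory complexes gave values near those of complex I. Of 43 subunits of complexes II to V that passed the limit, 41 were higher on GelMA-PSS than on both controls (all genes 45.3%), and 31 in TPM without TMM factors (all genes 15.8%), with a median ratio to the mean of the controls of 0.64 (0.21 in TPM). Of 36 assembly factors of these complexes, 26 were higher and 7 lower (all genes 45.3% and 39.3%), with a median of 0.37. In TPM 15 were higher and 15 lower (all genes 15.8% and 71.6%), with a median of -0.03. Subunits stood above assembly factors by 0.27 there and by 0.22 in complex I, and after the correction by 0.09 and 0.07. Against GelMA alone, the corrected difference was 0.17 there and 0.04 in complex I, and with the shortest coding transcripts the corrected medians to the mean of the controls were 0.29 and 0.08 there and 0.27 and 0.23 in complex I. How alike the complexes were thus depends on the control and on the transcript taken.

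Complex I assembly factors without an Nduf name were listed for 10 of 11 genes, and Coa1 was not analysed here. Of the 10, 9 were higher on GelMA-PSS than on both controls and 0 lower (all genes 45.3% and 39.3%), with a median ratio of 0.27 to the mean of the controls. In TPM without TMM factors 4 were higher and 6 lower (all genes 15.8% and 71.6%), with a median of -0.13. After the length and GC correction 8 were higher and 2 lower (all genes 40.7% and 40.6%), with a median of 0.16, above the 0.08 of the Ndufaf genes, but with the shortest coding transcripts these medians were 0.22 and 0.23. Nubpl, which delivers iron-sulfur clusters, had a CPM of 12.2 on TCP, 11.9 on GelMA and 22.3 on GelMA-PSS and the highest ratio, 0.84. Ecsit, a partner of Ndufaf1, had 21.7, 19.8 and 21.3 CPM and the lowest, 0.04. Nubpl was thus above each of the 7 Ndufaf genes, and Ecsit below them.

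Nuclear regulators of mitochondrial genes differed in both directions. Of 12 such genes, 4 were higher than in both controls, 5 were lower and 3 lay between, shares near those of all genes (45.3% higher and 39.3% lower). In TPM without TMM factors 0 were higher and 10 lower, where 15.8% of all genes were higher and 71.6% lower. Ppargc1b, a coactivator of mitochondrial gene expression, had a CPM of 9.77 on TCP, 11.5 on GelMA and 5.01 on GelMA-PSS, a ratio of -0.95. Its relative Ppargc1a had 6.77, 6.60 and 4.33 CPM and a ratio of -0.53. Tfam, which packages and transcribes mitochondrial DNA, had 43.7, 43.2 and 58.5 CPM and a ratio of 0.42. Yy1 had 46.5, 46.3 and 46.5 CPM and a ratio of 0.00. These regulators have long transcripts, with a median of 3954 bases, and after the correction the ratios of Ppargc1b, Ppargc1a, Tfam and Yy1 were -0.82, -0.23, 0.49 and 0.38. Yy1, level before the correction, was thus above both controls after it.

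Promoter sequences from RefSeq (GRCm38.p6), from 250 bases before to 50 after the start of each gene, were found for 39 of the 45 members. Those without an entry include Ndufa2, Ndufa4l2, Ndufaf6, Ndufb9 and Ndufs1. Motifs of factors known to act on such genes were searched on both strands. The YY1 motif AANATGGCG was found in 7 of 33 subunit promoters (21.2%) and 0 of 6 of assembly factors, against 2.76% of 27025 promoters and 5.91% of those of the genes tested. The NRF1 motif, spelled by the capitals in the last 3 sequences, was in 1 subunit promoter and 2 of assembly factors, against 1.07% of all promoters and 2.29% of those of the genes tested. A shorter form, GCGCANGCG, which every match of the longer one also holds, was in 8 subunit promoters (24.2%) and 2 of assembly factors, against 7.03% of all and 14.9% of those of the genes tested. The ETS motif CCGGAAGT was in 1 subunit promoter (all promoters 4.31%, genes tested 8.85%), the ESRRA motif TCAAGGTCA in 0 (0.466% and 0.294%) and the TATA box TATAAA in 4, or 12.1% (15.7% and 8.77%), and none of these 3 was in an assembly factor promoter. Among 31 promoters of subunits of complexes II to V, the YY1 motif was in 3 (9.68%) and the shorter NRF1 form in 12 (38.7%). There the longer NRF1 motif and the ETS motif were in 4 each (12.9%), and the ESRRA motif and the TATA box in 2 each (6.45%).

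The YY1 matches are shown because 7 subunits hold them, with the motif in capitals and the bases beside it in lower case.
Ndufa7: gagcggaaggAATATGGCGtccgctactc
Ndufa9: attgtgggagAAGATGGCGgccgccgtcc
Ndufb11: tcaccaacacAAAATGGCGacgagaagag
Ndufc1: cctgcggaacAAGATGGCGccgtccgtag
Ndufs4: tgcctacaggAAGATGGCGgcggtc
Ndufs6: ggtcaccggcAAGATGGCGgcggtgct
Ndufs7: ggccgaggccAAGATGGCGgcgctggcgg
All 7 lie on the strand of the gene. Their positions are chr17:33824617-33824645 (plus strand) for Ndufa7, chr6:126849097-126849125 (minus) for Ndufa9, chrX:20617812-20617840 (minus) for Ndufb11, chr3:51408915-51408943 (minus) for Ndufc1, chr13:114388045-114388069 (minus) for Ndufs4, chr13:73328433-73328459 (minus) for Ndufs6 and chr10:80249463-80249491 (plus) for Ndufs7. In all of these genes but Ndufb11, the ATG within the motif is an annotated start codon of the gene. The log2 ratios of these 7 genes to the mean of the controls ran from 0.35 in Ndufa9 to 0.86 in Ndufs7.

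The 3 members with the longer NRF1 motif include 2 assembly factors, and their matches are shown in the same way.
Ndufa11: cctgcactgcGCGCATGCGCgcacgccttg
Ndufaf4: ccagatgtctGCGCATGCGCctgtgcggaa
Ndufaf5: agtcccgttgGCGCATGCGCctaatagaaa
They lie at chr17:56717692-56717721 for Ndufa11, chr4:24897960-24897989 for Ndufaf4 and chr2:140170652-140170681 for Ndufaf5, all on the plus strand. The first base of the motif is at position -60 from the start for Ndufa11, -113 for Ndufaf4 and 17 for Ndufaf5. The log2 ratios to the mean of the controls were 0.54, 0.23 and 0.52. A match is a description of these letters in this window, and whether a factor binds there was not tested.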

How the data were processed

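The files hold the counts as the authors deposited them, without normalization. The submitters' processing notes name TopHat, edgeR, hg19 and mm10 with no role or version, and the tool and annotation used for counting are not given in the sources used here. The labels name a SMARTER kit and the methods a TruSeq kit. Of 23282 lines, those sharing one of 35 symbols were summed. TMM factors of 1.02 (TCP), 1.04 (GelMA) and 0.943 (GelMA-PSS) came from edgeR 4.0.16 in R 4.3.3. Python 3.11.15 was used with numpy 2.4.6, pandas 2.3.3, scipy 1.17.1, statsmodels 0.14.6 and matplotlib 3.10.9. CPM replaced the FPKM of the study's methods because counts were analysed. Intervals of levels are exact Poisson and those of ratios exact binomial, at 95%.

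Each symbol was given the length and GC content of 1 GENCODE vM21 transcript (GRCm38), found directly for 22197 symbols and by an older symbol for 650, while 391 had none. The loess span was 0.3. The procedure was checked by running it on simulated counts, that is, tested on simulated data. The changes simulated were larger than those of the members that passed the CPM limit, so the check does not cover shifts of their size. The members and lists were chosen with earlier results of these data known. Full values are given for the core subunits apart from a result that is not shown, each Ndufaf gene, Ndufa4, Ndufa4l2, Ndufab1, pseudogenes, the 2 highest and 2 lowest ratios of each accessory class, and the longest and shortest transcript. Neighbours of Ndufs7, overlapping genes, 1810043H04Rik and the genes named from other lists were picked after their values were seen. Alternatives concerned pseudocount, filter, scaling, control, transcript length, threshold and membership.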

Additional observations from a re-analysis of the deposited data

How the results depend on the processing

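No paired analysis was possible because each substrate has 1 library. The subunit medians kept their sign in the settings below. In TPM the assembly factor median, 0.022, was smaller than 0.028, the counting half-width of that class. This half-width is the error of a ratio of counts pooled over the class, not of a median. The cause of the shifts was not tested. The subunit median ratio to the mean of the controls, 0.64, was 0.65 with a pseudocount of 0.1, 0.63 without a filter, 0.52 with library totals, 0.22 in TPM without TMM factors, 0.15 after the loess correction, 0.71 with GelMA alone and 0.54 with TCP alone as control. The assembly factor median, 0.42, was 0.45 with a pseudocount of 0.1, 0.30 with totals, 0.022 in TPM, 0.078 after the correction, 0.54 with GelMA alone and 0.37 with TCP alone. Their difference, 0.22, was 0.19 in TPM, 0.074 after the correction and 0.17 with either control alone. The count above 2-fold, 0 (all genes 1.37%), was 15 at 1.5-fold (all genes 8.08%). Of the 7 assembly factors, 7 were above both controls (all genes 45.3%), 3 in TPM (all genes 15.8%) and 4 after the correction (all genes 40.7%). With the other complex I assembly factors added, 16 of 17 were (all genes 45.3%). The GelMA to TCP median of subunits, -0.17, was -0.13 with totals, -0.12 in TPM and -0.14 after the correction. That of assembly factors, -0.19, was -0.14 in TPM, -0.13 after the correction and -0.12 with the other factors added.

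Further alternatives were chosen after seeing the data. With the longest of tied transcripts, 23 of 37 subunits and 3 of 7 assembly factors were above both controls after the correction. No share of all genes is given for that setting (40.7% with the transcripts used above), so whether these counts exceed it is not known. The GelMA to TCP medians were then -0.13 and -0.13. The corrected medians to the mean of the controls were 0.11 for subunits and 0.055 for assembly factors, a difference of 0.052. With the shortest coding transcript they were 0.27 and 0.23, a difference of 0.034, and -0.15 for subunits between GelMA and TCP. Without members whose exons overlap another gene they were 0.63 and 0.46, a difference of 0.17, and -0.16 for subunits between GelMA and TCP. At 1.5-fold, the count above both controls was 16 with a pseudocount of 0.1 (all genes 9.59%) and 3 with totals (4.84%). It was 0 in TPM (1.41%) and 0 after the correction (2.63%). With 1810043H04Rik added, the assembly factor median was 0.47 and the difference 0.17. The other 86 values stayed within the counting error of pooled counts, which is not the error of a median, or, for counts, within 1.5 times. Depth limits Ndufa4l2 most, whose counts of 22, 5 and 53 leave wide intervals.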
